A study of Mus musculus with 12 samples.

Results

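The regions described here are RelA and Ikaros hotspots at 4 groups of antiviral genes in mouse macrophages: Rsad2 with Cmpk2, Mx1 with Mx2, the Ifit genes Ifit1, Ifit2 and Ifit3, and Isg15. A hotspot is a stretch of genome that the authors listed as enriched for sequenced fragments in 1 chromatin immunoprecipitation (ChIP) library. The members were chosen by position: every hotspot of the 10 libraries with at least 1 bp in 4 windows of mm9 was taken. The windows were chr12:27100000-27190000 for Rsad2 and Cmpk2, chr16:97640000-97800000 for Mx1 and Mx2, chr19:34580000-34760000 for the Ifit genes and chr4:155555000-155595000 for Isg15. They held 107 of the 50940 listed hotspots in 470 kb. The windows themselves were selected on the deposited hotspots, their widths, densities and z scores, so their number, closeness, width and rank in the windows are given as a description, and shares of whole lists are printed beside them for scale alone.

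The cells, C57BL/6J macrophages grown from bone marrow, were kept for 0, 3 or 8 h with lipopolysaccharide (LPS), the Gram-negative cell wall component that macrophages sense through TLR4. RelA, the transactivating subunit of NF-kB, was immunoprecipitated with the antibody ab7970 from wild-type cells at 0, 3 and 8 h of LPS, and at the same times from cells labelled as littermate control, for which the labels name no allele. Ikaros, a zinc finger DNA-binding protein of blood cells, was immunoprecipitated with the antibody M-20 from wild-type cells at 0, 3 and 8 h of LPS. Input DNA of untreated wild-type cells was also sequenced. Each of these 10 groups was 1 library, so no value below has a replicate error and no difference was tested. File names give another time than the labels for 6 libraries. For wild-type RelA and Ikaros, names of the 0 h libraries say 3 h, and names of the 8 h libraries hold 3 h beside 8 h. Littermate names at 3 h and 8 h also hold a further time. The labels were used, so every statement on time below depends on them.

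LPS makes macrophages secrete interferon-beta, which signals back to the interferon-stimulated response element (ISRE) of antiviral genes. The 8 genes that name the windows belong to this interferon-stimulated set. Rsad2 encodes viperin, a radical SAM enzyme that makes a chain-terminating nucleotide from CTP, and its neighbour Cmpk2 encodes a mitochondrial nucleotide kinase that is induced with it. Mx proteins are dynamin-like GTPases that block viral replication. RefSeq annotates Mx1 and Mx2 of its C57BL/6J reference genome as transcribed pseudogenes, with Fam3b between them. Ifit proteins bind viral RNA or the translation machinery, and Isg15 is a ubiquitin-like protein joined to other proteins during infection. In this cascade RelA is best known for acting upstream, at the interferon-beta gene and at inflammatory genes, and Ikaros is best known from lymphocyte development.

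Promoter sequences of the genes are shown for the element by which interferon signalling reaches such genes, since the hotspots themselves could not be placed on gene starts: the hotspots are on mm9 and the sequences on GRCm38.p6. RefSeq promoter windows, from upstream of a gene's start to just past it and 300 bases long, matched 6 of the 8 genes, all but Mx1 and Mx2. Each sequence below runs 5′ to 3′ on the gene's own strand, and capitals mark matches on either strand to an ISRE form, a pair of GAAA copies with any 2 bases between them.
Isg15: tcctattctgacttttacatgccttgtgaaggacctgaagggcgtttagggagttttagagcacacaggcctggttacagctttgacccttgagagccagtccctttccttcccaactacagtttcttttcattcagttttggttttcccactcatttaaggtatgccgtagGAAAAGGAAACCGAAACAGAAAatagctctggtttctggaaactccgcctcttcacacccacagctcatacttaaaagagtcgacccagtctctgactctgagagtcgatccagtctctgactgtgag
Ifit1: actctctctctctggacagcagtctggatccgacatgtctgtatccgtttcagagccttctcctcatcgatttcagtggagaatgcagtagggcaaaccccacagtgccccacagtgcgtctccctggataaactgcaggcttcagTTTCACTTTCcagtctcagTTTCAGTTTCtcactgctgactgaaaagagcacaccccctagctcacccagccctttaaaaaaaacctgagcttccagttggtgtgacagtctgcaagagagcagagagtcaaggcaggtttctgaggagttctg
Rsad2: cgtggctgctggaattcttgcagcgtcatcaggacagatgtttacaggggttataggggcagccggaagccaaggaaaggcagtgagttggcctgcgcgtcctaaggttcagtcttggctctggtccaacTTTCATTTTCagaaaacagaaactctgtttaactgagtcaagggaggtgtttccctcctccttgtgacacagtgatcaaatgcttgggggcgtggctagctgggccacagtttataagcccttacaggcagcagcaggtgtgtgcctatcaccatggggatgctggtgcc
Cmpk2: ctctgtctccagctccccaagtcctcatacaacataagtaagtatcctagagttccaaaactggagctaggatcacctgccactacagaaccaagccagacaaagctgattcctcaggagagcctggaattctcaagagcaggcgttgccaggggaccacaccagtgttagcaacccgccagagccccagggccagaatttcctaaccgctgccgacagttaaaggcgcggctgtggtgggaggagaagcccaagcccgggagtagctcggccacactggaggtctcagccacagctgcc
Isg15 holds 3 overlapping matches whose left ends are at -78, -72 and -66 from the gene's start. Ifit1 holds 2, at -104 and -85. Rsad2 holds 1, at -120, and the Cmpk2 window has none. Ifit3, whose sequence is not shown, holds 2 matches, at -156 and -122. In all, 4 of the 6 genes had the ISRE form, against 3.99% of the 27025 genes in the promoter table, a share over genes of every kind that does not set them apart from other interferon-stimulated genes. The kB form, GGGA and TTCC with any 2 bases between them on either strand, occurred in 1 of the 6 genes (Ifit2) and in 1.63% of all genes. The Ikaros core form TGGGAA, whose letters can overlap a kB form, occurred in 2 of the 6 genes (Ifit3 and Isg15) and in 28.3% of all genes. A match is a description of the letters and not evidence of binding.

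Before LPS the windows were almost empty. Wild-type RelA had 0, 32 and 4 hotspots in them at 0, 3 and 8 h. Littermate RelA had 0, 9 and 0, and Ikaros had 1, 28 and 33. RelA was thus listed at the antiviral genes at 3 h in both series, and Ikaros at both times after LPS. Input had 0 hotspots in the windows, and no window hotspot overlapped an input hotspot. The lists themselves differ in length, which sets how many hotspots any window can hold. After removal of hotspots that overlap input they held 47, 4972 and 1878 hotspots for wild-type RelA at 0, 3 and 8 h, 5805, 9999 and 5231 for littermate RelA, and 853, 7109 and 13796 for Ikaros. The z score is a deposited value by which hotspots are ranked here within a library. The lowest z score listed also differed and was 9.93, 8.88 and 10.9 for wild-type RelA at 0, 3 and 8 h. Sequencing depth is unknown, so a region that is not listed cannot be read as unbound.

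**Figure D1:**
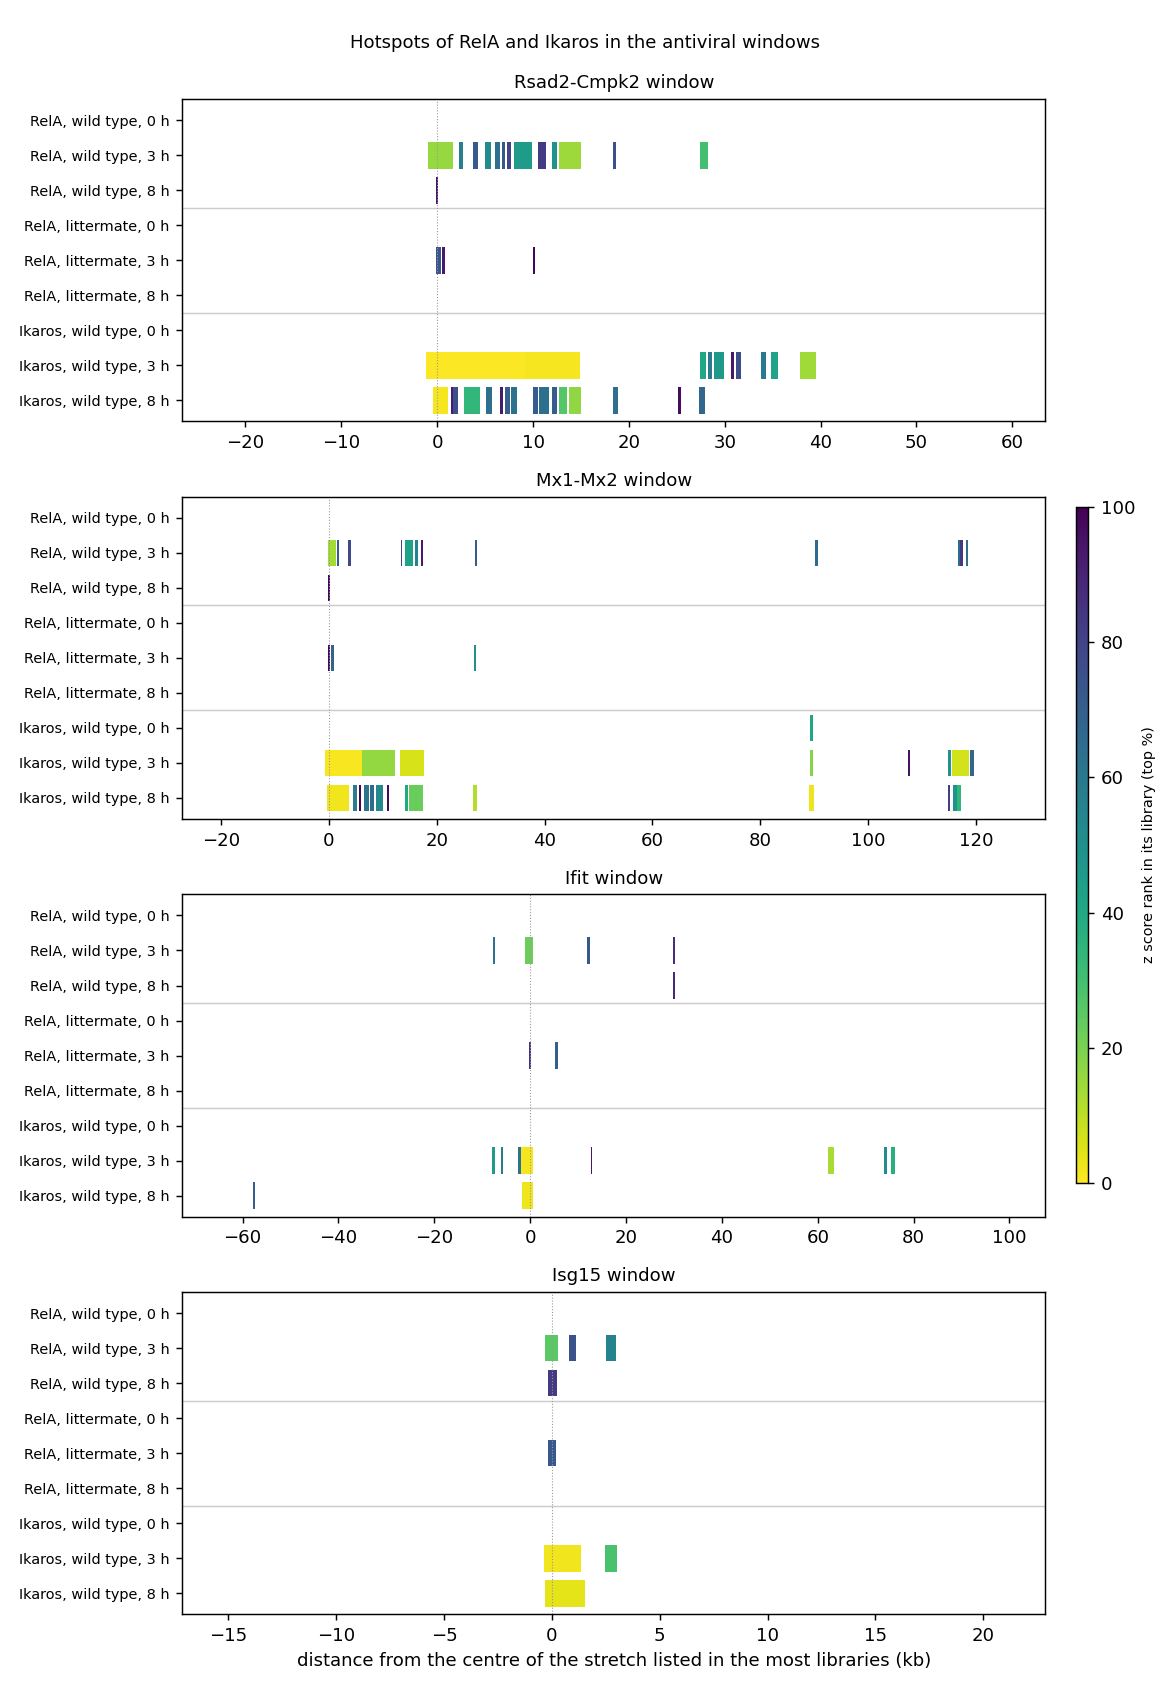
Hotspots in each antiviral window, with 1 row per library and the distance in kb from the centre of the stretch listed in the most libraries on the x axis. Bars are drawn to scale and coloured by the hotspot's z score rank in its own library, where a low percentage is a high rank. Ikaros at 3 h forms the longest bars, RelA at 3 h is a row of shorter bars in the same places, and RelA at 8 h keeps 1 bar per window.

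The length of the windows covered by each factor was lower at 8 h than at 3 h. Wild-type RelA hotspots covered 1164 bp of the windows at 8 h and 23682 bp at 3 h, a ratio of 0.0492, while over the whole genome the covered length at 8 h was 0.370 times that at 3 h. The windows were selected on hotspot widths and densities, which bear on covered length, so whole-list ratios are given for scale alone. Ikaros hotspots covered 31199 bp of the windows at 8 h and 54190 bp at 3 h, a ratio of 0.576. Over the whole genome the Ikaros covered length at 8 h was 2.01 times that at 3 h, from 8167622 bp at 8 h and 4055289 bp at 3 h. Ikaros covered less of the antiviral windows at 8 h than at 3 h, while its whole list covered more. This contrast, too, is a description of selected windows. The direction was the same in each window. The Ikaros ratio of 8 h over 3 h was 0.519 at Rsad2 and Cmpk2, 0.667 at Mx1 and Mx2, 0.382 at the Ifit genes and 0.810 at Isg15, and the RelA ratio was 0.0208, 0.0330, 0.0972 and 0.289 in the same windows. Covered lengths depend on each list's threshold, so the highest densities are given beside them. These are medians over listed hotspots, so they also depend on the threshold and on how a stretch is cut into hotspots. The median highest density of the window hotspots was 26.7 at 8 h and 37.3 at 3 h for Ikaros, with whole-list medians of 23.0 and 22.0 at those times. For wild-type RelA it was 15.1 at 8 h, from 4 hotspots, and 19.1 at 3 h, from 32, with whole-list medians of 25.5 and 18.5. The scale of the densities is not stated.

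**Figure D2:**
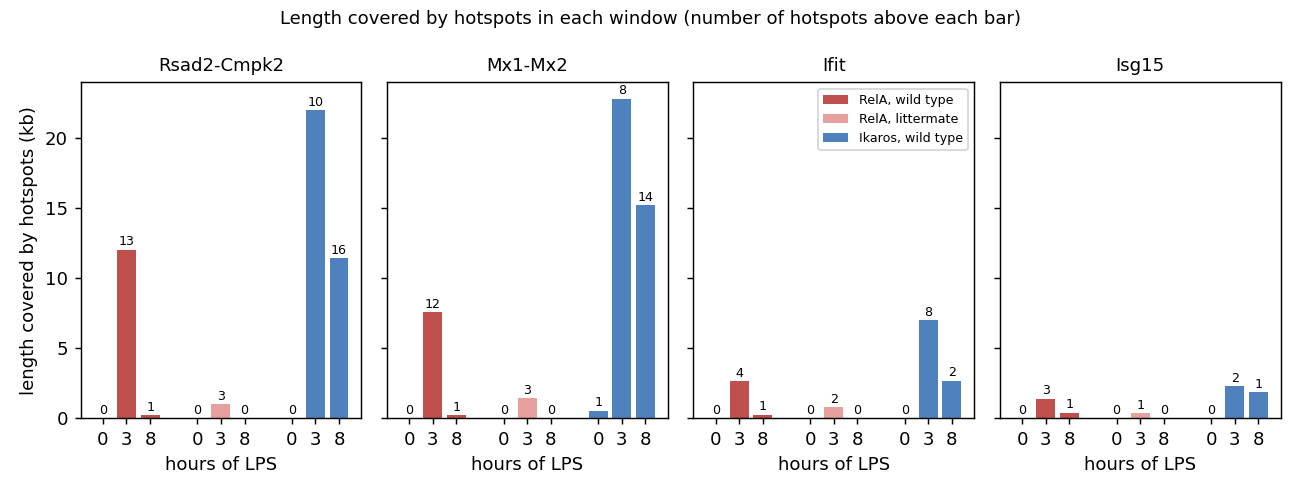
Length of DNA covered by hotspots (kb, y axis) in each window at 0, 3 and 8 h of LPS for the wild-type RelA, littermate RelA and Ikaros libraries. The 3 h value is the highest in every window for each of the 3 series, and Ikaros at 8 h lies between its 0 h and 3 h values.

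Most RelA hotspots of the windows were not listed at 8 h. Among the 32 wild-type RelA hotspots at 3 h, 4 overlapped a RelA hotspot at 8 h by at least 1 bp, which is 12.5% (exact Clopper-Pearson 95% interval 3.51 to 29.0), against 31.3% of the whole 3 h list. The 4 are 1 in each window. Counting only 3 h hotspots at or above the lowest z score listed at 8 h, an alternative chosen after the data were seen, left 3 of 18 (16.7%), against 42.1% of the list. When the 3 h list was held to its 1878 highest z scores, the length of the 8 h list, it kept 6 window hotspots, of which 3 (50%) were listed at 8 h, against 59.5% of the shortened list. In the other direction, all 4 RelA hotspots at 8 h overlapped one at 3 h, against 83.9% of the 8 h list, and under a reciprocal overlap of 50% the share was 50%, against 73.7%. Intervals throughout treat hotspots as independent and cover counting error only, although neighbouring hotspots share chromatin and library.

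Ikaros hotspots differed the other way in total number, though not in every window. At 8 h it had more window hotspots than at 3 h, 33 against 28, though 13 against 28 when the 8 h list was held to its 7109 highest z scores, the length of the 3 h list. The number was higher at 8 h at Rsad2 and Cmpk2 (16 against 10) and at Mx1 and Mx2 (14 against 8). It was lower at the Ifit genes (2 against 8) and at Isg15 (1 against 2). The 33 were mostly pieces of stretches already listed at 3 h. Of the 33 at 8 h, 29 (87.9%, interval 71.8 to 96.6) overlapped an Ikaros hotspot at 3 h, against 42.2% of the 8 h list, and those 29 lay on only 11 different 3 h hotspots. Under a reciprocal overlap of 50% the share was 21.2%, against 36.0% of the list, so the order against the list turned round. Pieces on the 3 h hotspots of 10296 and 5780 bp at Rsad2 and Cmpk2 had at most 1634 bp. None of them could meet this form, so the share depends on widths too. Of the 28 Ikaros hotspots at 3 h, 11 (39.3%, interval 21.5 to 59.4) overlapped one at 8 h, against 82.1% of the 3 h list. By window the 11 were 3 of 10 at Rsad2 and Cmpk2, 6 of 8 at Mx1 and Mx2, 1 of 8 at the Ifit genes and 1 of 2 at Isg15. They included the 3 h hotspot with the highest z score in each window, while the highest z score among the others was 22.5. The hotspot present at 0 h was listed at 8 h too (1 of 1, against 93.9% of the 0 h list).

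By an overlap of at least 1 bp, most RelA hotspots of the windows met an Ikaros hotspot, while most Ikaros hotspots met no RelA hotspot. Among the 32 wild-type RelA hotspots at 3 h, 27 (84.4%, interval 67.2 to 94.7) overlapped an Ikaros hotspot at 3 h, against 54.0% of the RelA list. These 27 fell on 11 Ikaros hotspots, so they are not 27 separate coincidences. Ikaros at 3 h covered 11.5% of the selected windows against 0.154% of the genome, which makes an overlap there more likely. The share is therefore a description. By window the 27 were 12 of 13 at Rsad2 and Cmpk2, 10 of 12 at Mx1 and Mx2, 2 of 4 at the Ifit genes and 3 of 3 at Isg15. With a reciprocal overlap of 50%, the share was 12.5% (4 of 32), against 42.1% of the list, so here too the order turned round. RelA hotspots on the Ikaros hotspots of 10296 and 5780 bp at Rsad2 and Cmpk2 had at most 2596 bp. None of them could meet this form, which therefore depends on widths as well as on shared position. At 8 h, 3 of the 4 RelA hotspots (75%, interval 19.4 to 99.4) overlapped an Ikaros hotspot, against 80.5% of the list. Seen from Ikaros, 3 of 33 hotspots at 8 h (9.09%, against 10.8% of the list) and 11 of 28 at 3 h (39.3%, against 37.1%) overlapped wild-type RelA, shares close to those of the whole lists. Merging overlapping hotspots of all libraries gave 34 regions, of which 11 were listed for both factors, 19 for Ikaros alone and 4 for RelA alone. Of all 32740 merged regions, 12.0% were listed for both factors, 33.8% for Ikaros alone and 54.2% for RelA alone, the last including the littermate lists.

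Widths were among the values on which the windows were selected, and are described here without being read as a difference from the genome. Of the 13 hotspots of 5000 bp or more in the Ikaros 3 h list (0.183% of it), 4 lay in the windows, 2 at Rsad2 and Cmpk2 and 2 at Mx1 and Mx2. At 8 h the list held 9 such hotspots (0.0652%), of which 0 were in the windows. The longest Ikaros hotspot of the whole genome at 3 h was the Rsad2 and Cmpk2 hotspot of 10296 bp. The median width of window hotspots at 3 h was 702.5 bp for Ikaros, whose list had a median of 533 bp, and 480 bp for wild-type RelA, whose list had a median of 538 bp. Closeness, too, follows from choosing windows where hotspots are dense. For wild-type RelA at 3 h, 22 of 32 (68.8%) were within 1000 bp of another hotspot of the same list, against 10.2% of that list. The same held for 4 of 9 in littermate RelA at 3 h (44.4%, against 10.2%), and in Ikaros for 25 of 33 at 8 h (75.8%, against 14.7%) and 19 of 28 at 3 h (67.9%, against 11.0%). Of the 4 RelA hotspots at 8 h, 0 were, against 7.08% of the list.

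**Figure D3:**
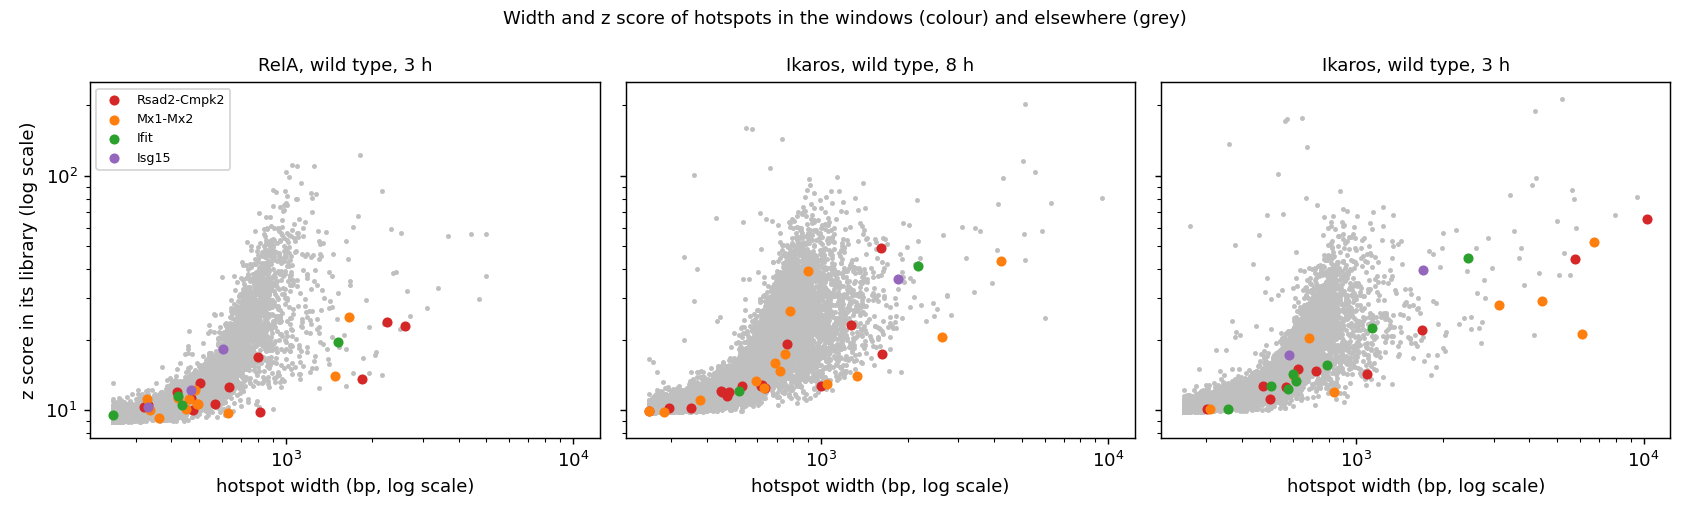
Hotspot width (bp, x axis, log scale) and z score (y axis, log scale) for wild-type RelA at 3 h and Ikaros at 8 h and 3 h, 1 panel each, with the whole list in grey and window hotspots coloured by window. Ikaros hotspots of the windows at 3 h reach the upper edge of the width range, at 10296 bp, while RelA hotspots of the windows at 3 h reach 2596 bp.

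At Rsad2 and Cmpk2 the longest region was a block of 16166 bp, chr12:27125445-27141611. At 3 h Ikaros had 2 abutting hotspots that covered 16076 bp of it, out of 22040 bp and 10 hotspots in the window. The left one spanned 10296 bp, with a highest density of 128 and a z score of 65.3, rank 29 of 7109. The right one spanned 5780 bp, with a highest density of 86.5 and a z score of 44.1, rank 108. At 8 h Ikaros had 13 hotspots in the block, covering 10012 bp, and the highest of them, chr12:27126112-27127727, had a highest density of 78.5 and a z score of 49.0, rank 183 of 13796. The rest of the block held Ikaros hotspots of 295 to 1634 bp at 8 h, so the stretch that was unbroken at 3 h was listed in pieces.

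Wild-type RelA at 3 h had 11 hotspots in the same block, covering 10921 bp. Its longest were at the 2 ends. The left, chr12:27125626-27128222, had a highest density of 33.0 and a z score of 22.8, rank 794 of 4972, and the right, chr12:27139297-27141555, had a highest density of 29.3 and a z score of 23.7, rank 733. The 9 hotspots between them were lower, with highest densities of 16.3 to 23.4. At 8 h RelA kept 1 hotspot of 251 bp at the left end, with a highest density of 14.8 and a z score of 11.2, rank 1782 of 1878, and the right end was not listed. Littermate RelA at 3 h had 3 hotspots in the block, the highest at the same left end with a highest density of 12.4. All 5 libraries with hotspots in the block shared chr12:27126472-27126665, a stretch of 193 bp.

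Outside the block, Rsad2 and Cmpk2 had 9 smaller regions. The region chr12:27153896-27155248 was listed for RelA at 3 h (z score 16.8) and for Ikaros at 8 h (z score 12.4) and 3 h (z score 15.0). Another, chr12:27144922-27145453, was listed for RelA at 3 h (z score 10.3) and for Ikaros at 8 h (z score 12.7). The remaining 7 regions were listed for Ikaros alone, 6 of them at 3 h and 1 at 8 h. The highest of the 6 was chr12:27164372-27166063, with a z score of 22.0.

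The Mx1 and Mx2 window had its highest values at the left, in chr16:97666525-97673256. Ikaros at 3 h covered all 6731 bp with 1 hotspot, whose highest density was 98.9 and whose z score was 52.4, rank 65. At 8 h it had 3 hotspots there, the highest of 4231 bp with a highest density of 57.3 and a z score of 43.2. By z score, wild-type RelA at 3 h had its highest window hotspot here, chr16:97666912-97668568, with a highest density of 30.7 and a z score of 24.9, rank 661. At 8 h RelA kept 251 bp with a highest density of 15.4 and a z score of 11.0, rank 1854 of 1878. Littermate RelA at 3 h had 2 hotspots, with highest densities of 12.4 and 15.7. The 5 libraries shared chr16:97667031-97667282, which is the RelA hotspot of 8 h.

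To its right the Mx window carried further long Ikaros hotspots. The region chr16:97673371-97679464 of 6093 bp was listed for Ikaros alone, in 4 pieces at 8 h and whole at 3 h with a z score of 21.1. The region chr16:97680348-97684779 was covered by Ikaros over 3328 bp at 8 h and 4431 bp at 3 h, and by RelA over 2663 bp at 3 h. The region chr16:97782678-97785820 was covered by Ikaros over 1468 bp at 8 h and 3142 bp at 3 h, and by RelA over 1383 bp at 3 h. Here the highest z scores were 17.3, 28.0 and 11.2 in the same order, and the highest densities 28.5, 53.6 and 22.1. In each of these regions, RelA was listed at 3 h or not at all.

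A pair of Mx regions followed another course. The region chr16:97756283-97757180 was listed for Ikaros at every time and was the only window hotspot present before LPS. Its highest density was 20.0, 66.9 and 86.9 at 0, 3 and 8 h, its z score 13.9, 20.2 and 39.4, and its width 551, 682 and 897 bp. Among the lists it ranked 350 of 853 at 0 h, 1323 of 7109 at 3 h and 419 of 13796 at 8 h. RelA had no hotspot on it, and its nearest, chr16:97757315-97757777 at 3 h, did not overlap it. Ikaros in the region chr16:97693928-97694707 was listed at 8 h with a highest density of 52.1 and a z score of 26.6, and was not listed at 3 h. RelA was listed there at 3 h in both series, with a z score of 10.6 in wild-type cells and 14.5 in littermate cells, the highest littermate value of the windows.

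The Ifit window had 12 regions, of which 9 were listed in 1 library each. Its strongest region was chr19:34650718-34653169. Ikaros covered 2170 bp of it at 8 h, with a highest density of 72.3 and a z score of 41.3, and 2451 bp at 3 h, with a highest density of 88.0 and a z score of 44.7. Wild-type RelA at 3 h had a hotspot of 1525 bp with a highest density of 30.2 and a z score of 19.5, rank 1120 of 4972. RelA had no hotspot there at 8 h, unlike in the highest regions of the other windows. Littermate RelA at 3 h had 316 bp with a highest density of 15.1, and these 316 bp, chr19:34652390-34652706, were shared by the 4 libraries.

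The RelA hotspot that the Ifit window kept at 8 h was elsewhere, at chr19:34682416-34682680, and was among the lowest of its list by highest density. Its highest density was 8.87 at 8 h, rank 1870 of 1878 by density, and 6.81 at 3 h. Its z score was 11.7 at 8 h, rank 1666 by z score, and 9.53 at 3 h. Ikaros was not listed there at any time. Another hotspot, chr19:34664495-34664930, was listed for wild-type RelA at 3 h alone (z score 10.5), and chr19:34657784-34658271 for littermate RelA at 3 h alone (z score 11.3). The region chr19:34644577-34645294 was listed at 3 h for RelA (z score 11.5) and Ikaros (z score 14.3). The other 7 regions were listed for Ikaros alone, 1 at 8 h (chr19:34594664-34595181, z score 12.0) and 6 at 3 h, the highest of which was chr19:34714765-34715901 with a z score of 22.5.

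Isg15, in the smallest window, had the covered lengths that differed least between 8 and 3 h. In chr4:155571771-155573668 Ikaros had a hotspot of 1856 bp at 8 h, with a highest density of 41.0 and a z score of 36.1, and of 1708 bp at 3 h, with a highest density of 44.7 and a z score of 39.6. Wild-type RelA covered 406 bp at 8 h, with a highest density of 20.5 and a z score of 12.1, and 938 bp at 3 h, with a highest density of 23.4 and a z score of 18.2. Littermate RelA at 3 h covered 381 bp with a highest density of 9.72. The 5 libraries shared 360 bp, chr4:155571951-155572311. The other Isg15 region, chr4:155574575-155575159, was listed at 3 h alone, for RelA (z score 12.2) and Ikaros (z score 17.2). Regions listed in the same 5 libraries therefore occurred in 3 of the 4 windows, 1 in each.

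The wild-type and littermate RelA series met in part. In the wild-type list at 3 h, 5 of the 32 window hotspots (15.6%, interval 5.28 to 32.8) overlapped a littermate RelA hotspot at 3 h, against 34.4% of the wild-type list. With equal list lengths for 3 and 8 h the count was 0 of 6, against 43.7%. For 8 h, 0 of the 4 wild-type hotspots had a littermate counterpart (interval up to 60.2), against 44.0% of the list. Conversely, 7 of the 9 littermate hotspots at 3 h (77.8%, interval 40.0 to 97.2) overlapped a wild-type RelA hotspot, against 17.3% of the littermate list, and 7 of 9 overlapped an Ikaros hotspot at 3 h, against 12.6%. The few littermate hotspots in the windows were mostly on DNA that the wild-type libraries also listed. Wild-type RelA at 3 h covered 5.04% of the windows against 0.107% of the genome, and Ikaros at 3 h 11.5% against 0.154%. A hotspot in the selected windows is thus more likely to overlap one of these, and the 2 shares are given as a description. Of the 9, 0 were listed in littermate cells at 8 h (interval up to 33.6), against 14.4% of the littermate 3 h list. The deposited densities of the littermate list were lower, with a median highest density at 3 h of 18.5 in wild-type RelA and 4.11 in littermate RelA, so the densities of the 2 series are not on one footing.

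Within their own libraries the antiviral hotspots spread over most of the list by z score. The median position of the window hotspots, counted from the top of the list, was 91.8% for wild-type RelA at 8 h and 65.0% at 3 h, 73.5% for littermate RelA at 3 h, and 62.2% for Ikaros at 8 h and 41.5% at 3 h. In the lower 50% of their lists were all 4 wild-type RelA hotspots at 8 h, 23 of 32 at 3 h and all 9 littermate hotspots, and for Ikaros 20 of 33 at 8 h and 10 of 28 at 3 h. Among the top 10% were 0 wild-type RelA hotspots at 3 h, against 5 of 33 for Ikaros at 8 h and 7 of 28 at 3 h. Ranked by highest density, the medians were 94.8% for wild-type RelA at 8 h and 47.0% at 3 h, 18.0% for littermate RelA at 3 h, and 35.7% for Ikaros at 8 h and 11.2% at 3 h. The littermate hotspots thus stood in the lower part of their list by z score and in the upper part by density.

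**Figure D4:**
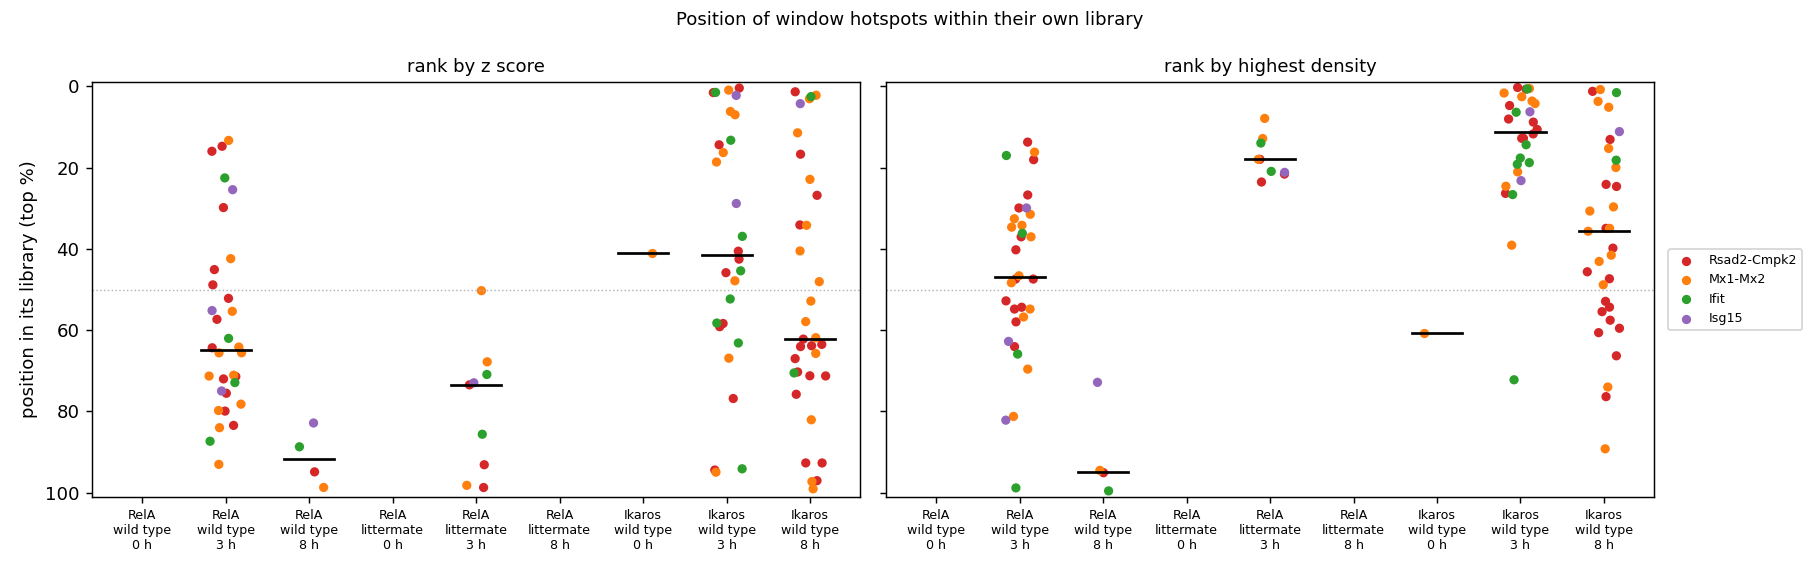
Position of each window hotspot in its own library (top %, y axis, with the highest at the top) by z score on the left and by highest density on the right. Points are hotspots coloured by window, black bars are medians, and the dotted line marks 50%. Ikaros at 3 h has the highest median of the wild-type libraries after LPS in both panels, and wild-type RelA at 8 h lies near the bottom of both.

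The RelA region with the highest z score at 3 h, at Mx1 and Mx2, was listed for wild-type RelA and Ikaros at 3 and 8 h and littermate RelA at 3 h. Of the 32740 merged regions of the genome, 0.761% had this pattern, 3 in the windows and 246 elsewhere. Its RelA z score at 3 h was 24.9, against 24.9, 25.0 and 25.1 in the 3 regions elsewhere that came nearest to it. Its Ikaros hotspot at 3 h covered 6731 bp, against 511, 735 and 718 bp in those regions. Its RelA z score at 8 h was 11.0, against 17.1, 17.9 and 19.8. The Mx region was picked for its z score in a window selected on such values, so these values are a description of 4 regions.

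Hotspots just beyond the windows were few. Within 20 kb of an edge lay 5, of which 3 were near Isg15 and 2 near the Ifit genes, with z scores of 9.30 to 16.8. Wild-type RelA had 1 near Isg15 at 8 h (z score 12.7) and at 3 h (z score 9.30), Ikaros had 1 there at 8 h (z score 16.8), and littermate RelA had 1 near the Ifit genes at 8 h (z score 11.8) and at 3 h (z score 13.5).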

How the data were processed

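Hotspot lists of 10 ChIP or input libraries were used. The submitters' processing notes name the build mm9 and the tool CASAVA. Libraries were sequenced as single-end reads, per the labels' protocols. No source used here gives the hotspot caller, its threshold or the base from which coordinates count, and coordinates are printed as deposited. The authors deposited for each hotspot the highest and the average density of tags, a signal on an unstated scale, a z score and a p-value, per the file headers. The p-values were not used, and z scores rank hotspots within a library and do not measure change between libraries. The labels list 12 samples, and the other 2 inputs were not analysed here.

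Hotspots that shared at least 1 bp with an input hotspot were removed, which left 49690 in the 9 immunoprecipitated libraries and all 107 in the windows. Overlaps were counted with Python 3.11.15, numpy 2.4.6 and pandas 2.3.3 and checked on simulated intervals and against bedtools 2.31.1, and exact intervals came from scipy 1.17.1. Figures were drawn with matplotlib 3.10.9. Overlapping hotspots were merged into regions over the 9 libraries. A region was named, with some or all of its values, under either of 2 rules. It was among the 3 highest of its window by z score of wild-type RelA at 3 h or Ikaros at 8 h, or it held the highest hotspot of any library there. A few others are named where a count singles them out, and these were chosen after their values were seen. Shares were also computed with input hotspots kept, a highest density of at least 10, equal list lengths at 3 and 8 h, a reciprocal overlap of 50% and windows widened by 20 kb. Promoters came from RefSeq, build GRCm38.p6. Motif shares in a further gene list were computed and are not reported here. The windows, genes, motifs and lists were chosen with earlier results of these data known. With 1 library per group and unknown depth, no test between groups was made.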

Additional observations from a re-analysis of the deposited data

Results flagged for a closer look

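In the Rsad2 and Cmpk2 window the number of Ikaros hotspots was 16 at 8 h and 10 at 3 h, a difference of 6, while the number of wild-type RelA hotspots was 1 at 8 h and 13 at 3 h. In the Mx1 and Mx2 window Ikaros had 14 hotspots at 8 h and 8 at 3 h, also a difference of 6, and wild-type RelA had 1 at 8 h and 12 at 3 h. Both windows were flagged because the 2 factors moved in opposite directions in number. The whole lists did the same, so this does not set the windows apart. Ikaros had 13796 hotspots at 8 h and 7109 at 3 h, and wild-type RelA 1878 at 8 h and 4972 at 3 h. At the Ifit genes and Isg15 both factors had fewer hotspots at 8 h than at 3 h. Ikaros had 2 against 8 and 1 against 2 there, and wild-type RelA 1 against 4 and 1 against 3. The differences were not tested, since each time is 1 library. In covered length Ikaros moved the same way as RelA: it covered 11432 bp at 8 h and 22040 bp at 3 h at Rsad2 and Cmpk2, and 15224 bp at 8 h and 22832 bp at 3 h at Mx1 and Mx2. When both lists had the same number of hotspots, the 4 windows together held 13 Ikaros hotspots at 8 h, against 28 at 3 h.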

How the results depend on the processing

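Of 107 alternatives to 27 results, 90 stayed within the limits set for them (1.5 times for a count, the exact 95% interval for a share or a median position) and 17 moved. For the median position of wild-type RelA at 8 h the limit was the full range of its 4 hotspots. Many alternatives had little or no room to move, so the 90 are not a measure of stability. Input removal took no window hotspot, and equal lengths leave the shorter list of a pair as it was. Intervals from few hotspots are wide. Of 52 alternatives to the shares, 7 turned the order against the whole list. These were a reciprocal overlap of 50% for RelA at 8 h listed at 3 h (50%, against 73.7%), for RelA with Ikaros and Ikaros with RelA at 3 h and for Ikaros at 8 h listed at 3 h, and, at 8 h, equal list lengths for RelA with Ikaros (75%, against 61.8%) and Ikaros with RelA (23.1%, against 16.0%) and the density floor for RelA with Ikaros. Equal list lengths at 3 and 8 h gave 6 window hotspots for wild-type RelA at 3 h, 1 for littermate RelA at 3 h and 13 for Ikaros at 8 h (below the 28 at 3 h, where the full list has 33), and shares of 50% for wild-type RelA at 3 h listed at 8 h, 100% for RelA at 3 h with Ikaros and 0% for wild-type RelA at 3 h in the littermate list. A reciprocal overlap of 50% gave 12.5% for RelA with Ikaros at 3 h, 0% at 8 h, 14.3% for Ikaros with RelA at 3 h, 0% at 8 h, and 21.2% for Ikaros at 8 h listed at 3 h. A highest density of at least 10 gave 5 littermate hotspots at 3 h and 100% for RelA with Ikaros at 8 h, and windows widened by 20 kb gave 1 littermate hotspot at 8 h. Ranking by highest density moved the median position to 47.0% for wild-type RelA, 18.0% for littermate RelA and 11.2% for Ikaros at 3 h, and to 35.7% for Ikaros at 8 h, inside its wide interval. An ISRE form without its last base occurred in 4 of the 6 genes and 9.76% of all genes, and a kB form of GGG and TTCC with any 3 bases between them in 1 of 6 and 6.31%. Shortening a list removes its lowest hotspots by construction, and the density floor removes those below 10. A reciprocal overlap of 50% cannot be met by a hotspot narrower than 50% of its partner. For the other changes the cause was not tested. No paired analysis was possible because each group is 1 library. The share of littermate hotspots at 8 h listed at 3 h has no value, as the windows held 0. A second library per group would be needed to tell a change from library variation.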
